A study of Homo sapiens with 24 samples.

Results

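The libraries described here are the 6 of a single siRNA series: U2OS cells transfected with the siRNA that the labels assign to the long PAN3 isoform and sampled after 0, 0.5, 1, 2, 4 and 6 h of actinomycin D. They were taken by their labels, 6 of the 24 libraries of the study, with 1 library at each time. U2OS is an established human osteosarcoma line. The late libraries (2, 4 and 6 h) were set against the early ones (0, 0.5 and 1 h), 3 against 3. The other libraries, used only where the series is compared with them, form 3 further series of 6: the same cells given an siRNA labelled for the short isoform, both PAN3 siRNAs, or a control siRNA, over the same times of the drug. All 24 libraries were made from cytoplasmic RNA of transfected cells, and all but the 0 h libraries had been in the drug. The labels name no repeated transfection, so the times of a series may stem from 1 culture, and p-values measure the scatter of the libraries about a course and may be technical.

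Actinomycin D binds DNA and stops transcription, so that an mRNA afterwards falls at the pace at which it is degraded. Decay of most mRNAs begins with the shortening of the poly(A) tail, first by the PAN2-PAN3 complex and then by the CCR4-NOT complex, and goes on with decapping and digestion from either end. PAN3 is the adaptor of its complex: it binds the poly(A)-binding protein and the GW182 proteins of the microRNA machinery, and brings in the nuclease PAN2. Messages of immediate-early genes, transcription regulators and cell-cycle switches are known for fast turnover, and those of ribosomal proteins, metabolism and secreted proteins for slow turnover. The series asks which RNAs are lost quickly or slowly in cells given the long-isoform siRNA, and whether that course differs from the one in the other series.

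FPKM (fragments counted per length of transcript and per mapped fragment of the library) give an RNA as a share of its library. FPKM summed to 334601.9, 350629.9, 346130.2, 351189.3, 369403.8 and 377704.3 from 0 to 6 h, and the number of genes at 1 FPKM or more was 9686, 9652, 9531, 9395, 9318 and 9285. The number of genes at 1 FPKM or more was lower at each time than at the one before. Read totals were not among the sources used here. The steps between low FPKM values put the depth of the later libraries at 0.973 to 1.144 times that of the 0 h library. Of 13 markers of mesenchymal or bone cells, 6 (VIM, CD44, NT5E, S100A4, LGALS1 and TGFBI) stood at 1 FPKM or more in all 6 libraries, and the list summed to between 2008 and 2462 FPKM in the late and between 1605 and 2002 FPKM in the early libraries. RUNX2 and ALPL, which mark bone cells, and SPARC, FN1, COL1A2 and THY1 of the same list stayed below 1 FPKM. COL1A1 lay between 0 and 72.14 FPKM. Of 15 markers of other cell types, SNAP25 reached 1 FPKM in every library, and HBB and ALB were listed at 0 in all. The list summed to between 13.8 and 19.8 FPKM in the late and between 16.1 and 19.5 FPKM in the early libraries.

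PAN3 itself was listed at 0.45, 1.19, 0.38, 0.43, 1.7 and 1.25 FPKM from 0 to 6 h. It averaged 1.13 ± 0.645 FPKM in the late and 0.67 ± 0.448 FPKM in the early libraries (SD, n = 3 each), and the groups overlapped (difference 0.455, exact permutation p = 0.3, two-sided; the smallest p that 3 against 3 allows is 0.1). The table holds 1 PAN3 transcript and does not separate the isoforms. The 6 values lie within the range of the control series (0 to 2.4 FPKM), and all are below those of the short-labelled series (1.76 to 4.01 FPKM). The both-labelled series ran from 0.41 to 2.49 FPKM. The loss of the long isoform cannot be read from these values, so the libraries are called long-labelled after their label. PAN2, the nuclease, was listed at 0 at 0 h, which next to 7.46 FPKM at 0.5 h is read as a failed estimate, and at 7.52, 7.87, 8.51 and 9.1 FPKM from 1 to 6 h.

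The spread of RNA levels widened with time in the drug. Relative to 0 h, 342 of 8837 genes tested stood at or below 0.5 times their level after 0.5 h, and 512, 836, 1276 and 1473 genes did so after 1, 2, 4 and 6 h, while those at 2 times or more numbered 287, 278, 288, 327 and 353. The count of such losses was higher at each time than at the one before, and that of such gains stayed between 278 and 353. All differences below are on the log2(FPKM + 0.1) scale, with each library centred on its median gene, so they are relative to the median gene of the library and understate the change of low genes; the scale shows relative, not absolute, loss. On that scale the median gene difference between late and early libraries was 0.15 (quartiles -0.22 and 0.38), and without the centring it was -0.04, so a small difference above 0 need not be a slower loss than that of the median gene or a gain in FPKM.

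Late against early libraries, in limma across all 8837 genes, 2 genes passed an adjusted p of 0.05, 1 higher and 1 lower, which is 0.0113% of the genes in each direction. The smallest adjusted p was 0.0435, and 3141 genes had an unadjusted p under 0.05. The spread within a phase holds the course itself: the median residual SD was 0.225 about the phase means and 0.186 about a straight line over the 6 times. TAB1, an activator of the kinase TAK1, was the gene that fell. It stood at 6.1, 6.89, 6.49, 0.64, 0.84 and 0.84 FPKM from 0 to 6 h, with no overlap and little spread within either phase (late minus early -2.73 ± 0.21 SE, 6.64-fold lower, adjusted p = 0.0435). STAG3L1, a relative of the cohesin gene STAG3 with near-identical copies among which reads may have been split, was the gene that rose. It stood at 1.99, 2.46, 3.17, 15.67, 12.31 and 14.07 FPKM (2.63 ± 0.21, 6.18-fold higher, adjusted p = 0.0435). Both changed most between 1 and 2 h. Both calls were lost when the 0, 0.5, 4 or 6 h library was left out, with adjusted p of up to 0.121 for TAB1 and 0.127 for STAG3L1, and that of TAB1 also without the 1 h library. Without the 2 h library the count of calls was 2080.

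A straight line over the hours, the alternative that uses the order of the times, called 3168 genes in limma, 2134 higher (24.1%) and 1034 lower (11.7%). Of these, 2617 also had late and early libraries that did not overlap. Counted without any model, the 3 late libraries all lay above the 3 early ones in 2706 genes (30.6%) and all below them in 1384 (15.7%). The direction of these calls rests on the centring. Uncentred values gave 773 higher (8.75%) and 1531 lower (17.3%), and quantile normalisation 723 higher (8.18%) and 955 lower (10.8%). Without the 6 h library the line called 1745 genes. "Fell" and "rose" below refer to this line, with its slope in log2 units per h and its standard error (SE). Counts of a list are given beside the 24.1% higher and 11.7% lower over all genes, and where another scaling is named they are in the same order of direction. Counts under another scaling are to be read beside the shares of all genes under that scaling, given above. Among the genes that the line called, those with the largest late minus early difference are named.

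RAB20, a small GTPase of the endosome, stood at 19.01, 12.76, 9.44, 3.78, 0.62 and 0.47 FPKM from 0 to 6 h, an average of 1.62 ± 1.87 FPKM in the late and 13.7 ± 4.86 FPKM in the early libraries (SD, n = 3 each). It showed the largest drop of the genes named by this rule (late minus early -3.32 ± 0.7, slope -0.86 ± 0.09, limma adjusted p = 0.00403). CHAC1, an enzyme that degrades glutathione and a target of the stress factor ATF4, stood at 13.3, 9.32, 5.83, 1.74, 0.64 and 0.33 FPKM (-3.25 ± 0.54, slope -0.8 ± 0.09, adjusted p = 0.00418). Neither gene's late libraries reached its early ones.

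SGK1, a kinase induced by serum and glucocorticoids, stood at 378.39, 187.26, 124.72, 52.77, 33.09 and 29.11 FPKM (-2.29 ± 0.4, slope -0.53 ± 0.11, limma adjusted p = 0.016). Most of its loss came by 2 h, and it was nearly level between 4 and 6 h.

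CXCR4, the receptor of the chemokine CXCL12, went on falling to the last time. It stood at 213.83, 135.16, 95.87, 51.29, 21.14 and 10.38 FPKM, an average of 27.6 ± 21.2 FPKM in the late and 148 ± 60.1 FPKM in the early libraries (-2.45 ± 0.56, slope -0.66 ± 0.04, limma adjusted p = 0.00344). EXOSC4, a subunit of the RNA exosome, held 28.09, 26.98, 21.45, 12.58, 7.49 and 1.15 FPKM (-2.17 ± 0.78, slope -0.67 ± 0.08, adjusted p = 0.00419), so that most of its loss came after 1 h. WEE1, the kinase that holds CDK1 inactive before mitosis, held 24.31, 20.09, 17.37, 10.8, 3.35 and 1.89 FPKM (-2.09 ± 0.55, slope -0.59 ± 0.03, adjusted p = 0.0031). In all 3 the lowest value was that of 6 h.

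NR4A1, an orphan nuclear receptor of the immediate-early class, stood at 56.57, 40.82, 29.17, 16.29, 6.14 and 5.46 FPKM (-2.11 ± 0.42, slope -0.53 ± 0.07, limma adjusted p = 0.0047), with no overlap between late and early libraries. There was none either for HPS6, a part of the machinery of lysosome-related organelles, which differed by -2.28 ± 0.41, and for SERTAD1, a binding partner of the kinase CDK4, which differed by -2.2 ± 0.44.

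**Figure D1:**
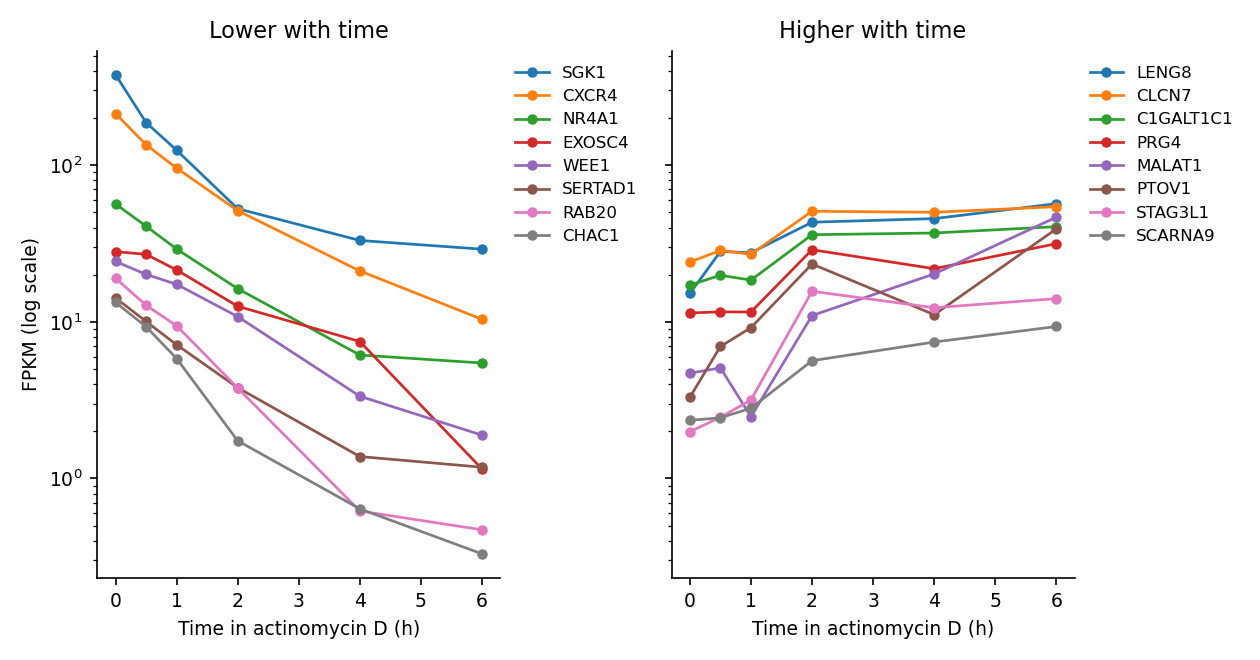
FPKM (log scale) against time in actinomycin D (h) for 8 RNAs that fell and 8 that rose in the long-labelled series; each point is 1 library and the lines join the libraries of a gene. SGK1 levels off at 33.09 and 29.11 FPKM at 4 and 6 h, whereas CXCR4 and EXOSC4 still fall between 4 and 6 h; MALAT1 ends at 46.6 FPKM, and STAG3L1 changes most between 1 and 2 h.

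The immediate-early genes, which cells switch on within minutes of a stimulus and whose mRNAs are known to turn over quickly, had 28 members that fell and 1 that rose. These were 44.4% and 1.59% of the 63 that passed the filter on low values, of 74 listed (20 fell and 1 rose under quantile normalisation); every list below is likewise counted over the members that passed. Late and early libraries did not overlap in 46 that were lower and 1 that was higher. The median late minus early difference of the list was -1.24, beside 0.15 over all genes. MYC, the transcription factor of growth, stood at 180.12, 108.33, 74.83, 40.18, 31.43 and 31.1 FPKM, an average of 34.2 ± 5.15 FPKM in the late and 121 ± 53.8 FPKM in the early libraries (-1.54 ± 0.29, slope -0.34 ± 0.09, limma adjusted p = 0.0325). JUN, a subunit of the factor AP-1, stood at 27.49, 13.3, 9.54, 6.21, 5.6 and 2.45 FPKM (slope -0.42 ± 0.08, adjusted p = 0.0126). IER2, a small nuclear protein, stood at 113.36, 57.77, 34.54, 28.31, 20.55 and 15.51 FPKM (slope -0.35 ± 0.09, adjusted p = 0.0264). In all 3 the 0 h library was the highest, the 6 h library the lowest, and no late library reached an early one. The calls were lost without the 0, 0.5, 1 or 4 h library for MYC, without the 6 h library for JUN and without the 0.5, 4 or 6 h library for IER2 (adjusted p of up to 0.0826, 0.0982 and 0.0757).

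CITED2, a coregulator of p300, stood at 39.97, 23.5, 14.17, 6.25, 4.88 and 3.94 FPKM (-2.05 ± 0.36, slope -0.46 ± 0.1, limma adjusted p = 0.0202), and KLF5, a Krüppel-like factor, at 19.51, 12.46, 8.57, 3.73, 2.82 and 2.37 FPKM (-1.9 ± 0.3, slope -0.43 ± 0.09, adjusted p = 0.0173). Without single libraries (0, 0.5 or 4 h for CITED2, 4 h for KLF5) the adjusted p reached 0.0565 and 0.0504. DUSP1, the phosphatase that switches off MAP kinases, was chosen after its values were seen: 132.39, 16.98, 13.02, 8.36, 6.23 and 5.34 FPKM. Most of its loss came in the first 0.5 h, and the line did not call it (-2.03 ± 0.84, slope -0.49 ± 0.2, adjusted p = 0.106). ID3, an inhibitor of helix-loop-helix factors, held 100.71, 99.41, 100.67, 66.58, 58.74 and 60.53 FPKM, with no overlap (-0.5 ± 0.08; slope adjusted p = 0.0617). The member that rose was PLAUR, the urokinase receptor, at 36.23, 40.42, 39.68, 41.58, 46 and 57.33 FPKM (slope 0.15 ± 0.01, adjusted p = 0.0037).

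The shape of the loss is described here by the rate of the first hour (0 to 1 h) and that of the last 4 h (2 to 6 h), each in log2 units per h relative to the median gene and each resting on 2 libraries. The median immediate-early gene changed by -1.04 per h in the first hour and by -0.06 per h after 2 h. CITED2 changed by -1.43 and then -0.12 per h, and MYC by -1.21 and then -0.05 per h. The opposite order held for EXOSC4 (-0.33 and then -0.79 per h), for WEE1 (-0.43 and then -0.57 per h) and for HMOX1 (-0.05 and then -0.26 per h). CXCR4 was fast in the first hour and still changing later (-1.1 and then -0.53 per h). Of the 1384 genes with all late libraries below all early ones, the first hour was the faster in 951 (68.7%); among the 46 immediate-early genes of that kind it was the faster in 45, with ID3 the exception. A rate over 1 h carries more error than a rate over 4 h, and no test was made of these shares.

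**Figure D2:**
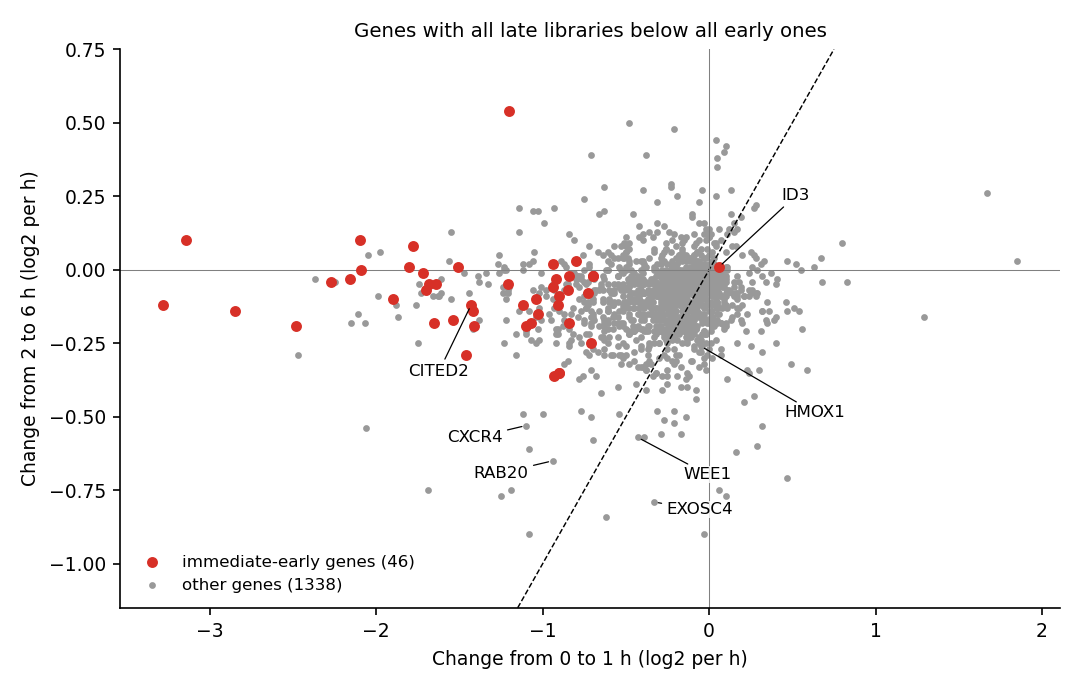
Rate of change from 2 to 6 h against rate of change from 0 to 1 h (both log2 per h, centred on the median gene) for the 1384 genes whose late libraries all lay below the early ones; each point is a gene, red for the 46 immediate-early genes, and the dashed line marks equal rates. Nearly all red points lie left of the line, with EXOSC4 and WEE1 below and right of it.

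HMOX1, the heme oxygenase induced by oxidative stress, was slow to start. It stood at 150.23, 164.74, 139.22, 99.93, 65.37 and 43.65 FPKM, an average of 69.6 ± 28.4 FPKM in the late and 151 ± 12.8 FPKM in the early libraries (-1.01 ± 0.25, slope -0.27 ± 0.02, limma adjusted p = 0.00353). CDKN1A, the p53-induced inhibitor of cyclin-dependent kinases, stood at 121.95, 116.25, 98.31, 86.42, 68.32 and 55.76 FPKM, an average of 70.2 ± 15.4 FPKM in the late and 112 ± 12.3 FPKM in the early libraries (-0.5 ± 0.14, slope -0.14 ± 0.01, adjusted p = 0.00373). Of 25 p53 targets, 9 fell and 2 rose (median difference -0.3; 5 fell and 0 rose under quantile normalisation). SESN2, a sestrin, held 15.98, 13.01, 9.83, 5.92, 4.38 and 3.85 FPKM (slope -0.29 ± 0.05, adjusted p = 0.0117), and AEN, an apoptosis-linked nuclease, held 39.57, 28.49, 22.31, 15.56, 10.52 and 12.64 FPKM (slope -0.22 ± 0.06, adjusted p = 0.0416). None of these genes had a late library above an early one. AEN lost its call without the 0, 0.5, 1 or 4 h library (adjusted p of up to 0.108) and under quantile normalisation (0.0568).

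Zinc-finger genes of the ZNF family, most of them DNA-binding repressors, gave 28 members that fell and 8 that rose of 140 tested (20.0% and 5.71%, median difference -0.3; 13 fell and 6 rose under quantile normalisation). ZNF274 stood at 5.8, 4.06, 3.37, 1.35, 1.23 and 0.7 FPKM (slope -0.41 ± 0.07, limma adjusted p = 0.0106) and ZNF622, a factor of ribosome maturation, at 47.88, 45.54, 38.44, 26.14, 17.93 and 14.18 FPKM (slope -0.26 ± 0.03, adjusted p = 0.00373). Of 34 genes of G2 and M phase, 11 fell and 2 rose (median difference -0.12). CCNF, a cyclin that recruits a ubiquitin ligase, held 8.86, 6.06, 5.83, 1.9, 1.44 and 1.43 FPKM (-1.85 ± 0.21, slope -0.39 ± 0.09, adjusted p = 0.0257). AURKA, the mitotic kinase, held 38.72, 34.47, 27.5, 22.03, 18.7 and 18.24 FPKM (slope -0.13 ± 0.03, adjusted p = 0.0324), while PTTG1, the securin that guards sister chromatids, rose (77.49, 78.28, 79.42, 85.65, 94.24 and 91.06 FPKM, slope 0.1 ± 0.02, adjusted p = 0.00842, but 0.02 and 0.251 under quantile normalisation). Without single libraries the adjusted p reached 0.0538 for ZNF274, 0.0824 for CCNF and 0.0881 for AURKA. The most abundant transcript of AURKA alone did not pass (slope -0.12, limma adjusted p = 0.234). Of 38 S-phase genes, 11 rose and 3 fell (28.9% and 7.89%, median difference 0.15, but 1 rose and 9 fell without centring, with a median of -0.04); TYMS, the thymidylate synthase, held 91.12, 89.1, 96.16, 103.24, 111.77 and 115.49 FPKM (slope 0.11 ± 0.02, adjusted p = 0.00514, but 0.04 and 0.0908 under quantile normalisation).

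Of 8 genes of the circadian clock tested, 4 fell and none rose (median difference -1.13). NR1D1, the heme-binding repressor of the clock, held 5.19, 3.7, 2.31, 1.24 and 0.99 FPKM from 0 to 4 h and was listed at 0 at 6 h (slope -0.79 ± 0.11, limma adjusted p = 0.00594). That 0 was kept because the 4 h value lay just under 1 FPKM. The 6 h point is thus set by the added 0.1 FPKM, and the slope of NR1D1 is uncertain. PER1, a period protein, held 4.41, 5.34, 4.4, 3.11, 1.26 and 0.26 FPKM (slope -0.58 ± 0.07, adjusted p = 0.00439). The others that fell were BHLHE40 and NR1D2. BHLHE40 is also on the immediate-early list.

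The stress lists had members on both sides. Of 20 genes of the ATF4 response, 6 fell and 5 rose (median difference 0.05, which is -0.14 without centring). CEBPB, a leucine-zipper factor, fell (44.79, 32.56, 16.47, 8.75, 5.9 and 4.89 FPKM, slope -0.46 ± 0.09, limma adjusted p = 0.0152), while NUPR1, a stress-induced chromatin protein, rose (36.54, 41.16, 40.9, 40.45, 45.71 and 49.71 FPKM, slope 0.11 ± 0.01, adjusted p = 0.0047). Of 19 genes of the endoplasmic reticulum (ER) folding response, 11 rose and 2 fell (median difference 0.41; 9 and 3 without centring, 3 and 2 under quantile normalisation). The 2 that fell were XBP1, the transcription factor of that response, at 131.35, 109.62, 97.27, 72.97, 46.32 and 25.46 FPKM (slope -0.33 ± 0.01, adjusted p = 0.00273), and HERPUD1, a part of ER-associated degradation (slope -0.06 ± 0.02, adjusted p = 0.0377, and up to 0.0957 without 1 library). HSP90B1, an ER chaperone, stood at 317.04, 370.78, 377.53, 432.14, 478.96 and 496.34 FPKM (slope 0.15 ± 0.02, adjusted p = 0.00574, but 0.04 and 0.0628 under quantile normalisation). Of 17 heat-shock genes, 7 rose and 3 fell (median 0.28, but 1 rose and 4 fell without centring, and the median is -0.08 under quantile normalisation). DNAJB1, a co-chaperone, fell (41.24, 32.12, 23.68, 13.38, 7.74 and 8.29 FPKM, slope -0.35 ± 0.07, adjusted p = 0.0132), and HSPE1, the mitochondrial chaperonin partner, rose (129.01, 127.76, 132.03, 145.29, 148.76 and 153.56 FPKM, slope 0.1 ± 0.01, adjusted p = 0.00625, but 0.01 and 0.631 under quantile normalisation).

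Among BCL2 relatives, 2 of 13 fell and 1 rose. MCL1, a short-lived survival factor, stood at 181.12, 123.41, 104.65, 70.48, 53.27 and 50.5 FPKM (slope -0.24 ± 0.05, limma adjusted p = 0.0187). BCL2L11, the death-promoting protein BIM, stood at 8.25, 5.39, 4.39, 2.81, 1.86 and 1.17 FPKM (slope -0.37 ± 0.05, adjusted p = 0.0048). BAD, another promoter of cell death, rose (5.84, 6.65, 6.25, 7.62, 7.01 and 8.57 FPKM, slope 0.12 ± 0.03, adjusted p = 0.0161). MCL1 lost its call without the 4 h library (adjusted p = 0.0523) and BAD without the 6 h library (adjusted p = 0.118) and without centring (0.0903).

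Lists of housekeeping machines had more members that rose, relative to the median gene, but fewer under the other scalings. Of 74 ribosomal protein genes, 44 rose and none fell (median difference 0.41; 47 had all late libraries above all early ones). Without centring 19 rose (25.7%, beside 8.75% of all genes) and 1 fell (median 0.22). Under quantile normalisation 2 rose (2.70%, beside 8.18%) and 4 fell (median 0.07). RPL31 stood at 513.71, 524.48, 553.39, 631.19, 698.84 and 663.61 FPKM, an average of 665 ± 33.8 FPKM in the late and 531 ± 20.5 FPKM in the early libraries (slope 0.12 ± 0.02, limma adjusted p = 0.0105, but 0.02 and 0.328 under quantile normalisation). Of 75 nuclear genes of oxidative phosphorylation, 50 rose and 2 fell (median difference 0.44). The counts were 31 (41.3%) and 3 without centring and 10 (13.3%) and 4 under quantile normalisation. ATP5J2, a subunit of the ATP synthase, stood at 281.3, 295.89, 293.7, 364.21, 414.63 and 441.75 FPKM (slope 0.17 ± 0.02, adjusted p = 0.00424). The 2 that fell were NDUFV2, a complex I subunit, at 12.46, 11.44, 11.47, 7.11, 6.8 and 5.77 FPKM (slope -0.14 ± 0.04, adjusted p = 0.0294), and ATP5G3, a rotor subunit of the ATP synthase (slope -0.1 ± 0.02, adjusted p = 0.025). Without single libraries the adjusted p of these 2 reached 0.0951 and 0.269.

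Of the mitochondrial ribosomal protein genes, 19 of 75 rose and 7 fell, with a median difference of 0.1, below that of all genes. Without centring 7 rose (9.33%) and 19 fell (25.3%), with a median of -0.09, beside 8.75%, 17.3% and -0.04 over all genes. Of 43 proteasome genes, 21 rose and 2 fell (median 0.23; 2 and 5 under quantile normalisation, with a median of 0.01); PSMD2, a regulatory subunit, stood at 139.6, 141.34, 152.46, 160.25, 172.01 and 184.84 FPKM (slope 0.12 ± 0.01, limma adjusted p = 0.00411, but 0.02 and 0.198 under quantile normalisation). Of 15 glycolysis genes, 6 rose and none fell (median 0.39), against 1 that rose without centring and 0 under quantile normalisation. LDHB, a lactate dehydrogenase, stood at 926.33, 1012.5, 1073.56, 1236.92, 1383.95 and 1415.32 FPKM (slope 0.15 ± 0.02, adjusted p = 0.00556, but 0.04 and 0.0989 under quantile normalisation), whereas GAPDH, often used as a reference gene, stood at 2185, 2368.87, 2409.91, 2606.06, 2978.99 and 1793.65 FPKM and had its lowest value at 6 h (slope 0.02 ± 0.05, adjusted p = 0.721). ACTB, another common reference gene, encodes cytoplasmic actin and stood at 2499.94, 2710.61, 2723.55, 2771.88, 2974.48 and 3175.66 FPKM (slope 0.1 ± 0.01, adjusted p = 0.00451, but -0.02 under quantile normalisation).

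Of 20 extracellular matrix genes, 10 rose and none fell (median difference 0.44; 6 and 1 without centring, 3 and 0 under quantile normalisation), TGFBI among them at 26.6, 26.35, 28.09, 30.89, 32.23 and 36.47 FPKM (slope 0.13 ± 0.01, limma adjusted p = 0.00434). Of 20 integrin and adhesion genes, 9 rose and none fell (median 0.25; 4 and 0 without centring, 4 and 1 under quantile normalisation). ITGA5, the fibronectin receptor subunit, stood at 65.97, 68.66, 70.73, 72.64, 77.52 and 88.04 FPKM (slope 0.11 ± 0.01, adjusted p = 0.0037). Of 19 interferon-response genes, 7 rose and 2 fell (median 0.35; 5 and 2 without centring, 4 and 1 under quantile normalisation), with BST2, the tetherin that holds virus particles to cells, at 308.51, 340.57, 355.25, 371.3, 414.24 and 446.42 FPKM (slope 0.13 ± 0.01, adjusted p = 0.00407, but 0.02 and 0.176 under quantile normalisation). Of 24 cholesterol synthesis genes, 11 rose and 1 fell (median 0.23; 5 and 3 without centring, 3 and 1 under quantile normalisation). FDPS, the farnesyl diphosphate synthase, stood at 156.11, 165.16, 162.2, 174.25, 223.3 and 226.13 FPKM (slope 0.15 ± 0.02, adjusted p = 0.00421), and the 1 that fell was SQLE, the squalene epoxidase, at 25.44, 25.19, 25.04, 20.12, 15.04 and 10.87 FPKM (slope -0.16 ± 0.02, adjusted p = 0.00411). Of 19 replication histone genes, 6 rose and none fell (median 0.27; 4 and 0 without centring, 3 and 0 under quantile normalisation).

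**Figure D3:**
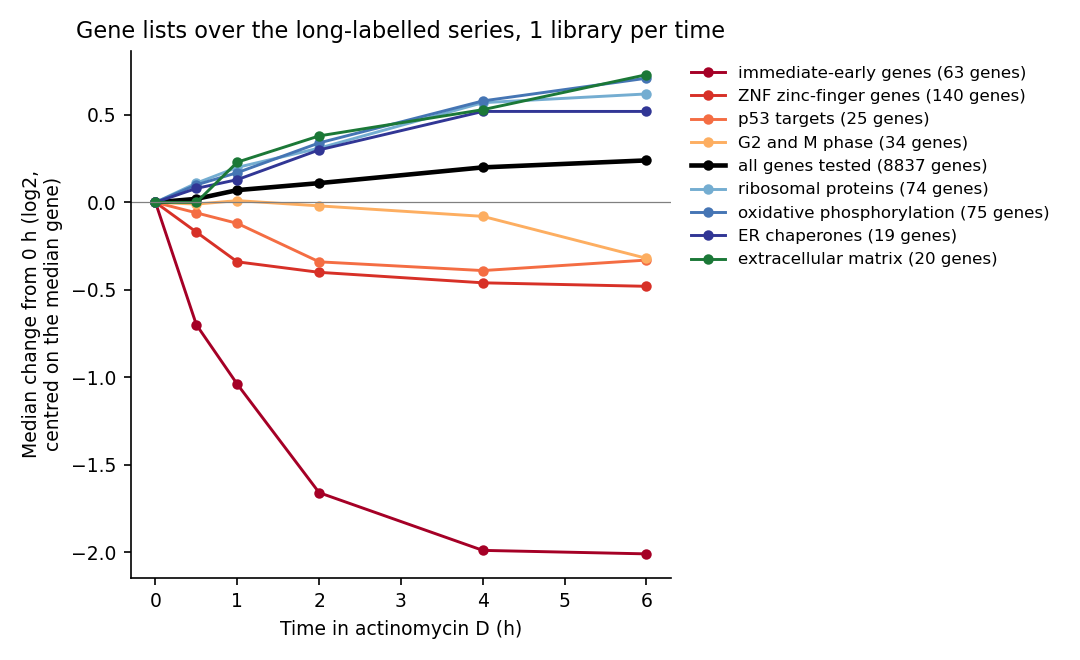
Median change from 0 h (log2, centred on the median gene of each library) against time in actinomycin D (h) for 8 gene lists and for all 8837 genes tested (black) in the long-labelled series; each point is a median over the genes of a list in 1 library. The immediate-early list falls to -1.04 at 1 h, -1.66 at 2 h and -2.01 at 6 h, while ribosomal proteins reach 0.62 and oxidative phosphorylation 0.71 at 6 h.

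Noncoding RNAs were few among the genes tested. MALAT1, a nuclear RNA of the splicing speckles that here was read from cytoplasmic RNA, stood at 4.7, 5.08, 2.48, 10.97, 20.23 and 46.6 FPKM, an average of 25.9 ± 18.5 FPKM in the late and 4.09 ± 1.4 FPKM in the early libraries (2.64 ± 0.58, slope 0.67 ± 0.1, limma adjusted p = 0.00677). NEAT1, the RNA of the paraspeckles, stood at 103.87, 166.33, 166.14, 136.48, 224.44 and 226.82 FPKM, with an overlap between late and early libraries (slope 0.2 ± 0.05, adjusted p = 0.0218). CRNDE also rose, so 3 of the 4 nuclear noncoding RNAs tested rose and none fell, against 1 that rose without centring and 1 under quantile normalisation. MALAT1 lost its call without the 6 h library (adjusted p = 0.0661), and NEAT1 without the 0, 4 or 6 h library (adjusted p of up to 0.0782), without centring (0.0642) and under quantile normalisation (0.13). Nuclear RNA in the cytoplasmic preparation was not measured separately, and its part in these gains was not tested. Of 11 small nuclear and nucleolar RNAs, 3 rose (27.3%, near the share over all genes) and none fell: SCARNA9, a guide RNA of the Cajal body, at 2.35, 2.44, 2.81, 5.65, 7.43 and 9.34 FPKM (slope 0.4 ± 0.06, adjusted p = 0.00548), RNU6ATAC, a minor spliceosomal RNA, at 124.03, 324.53, 338.31, 241.45, 583.51 and 615.52 FPKM (slope 0.35 ± 0.09, adjusted p = 0.029, up to 0.0959 without 1 library, 0.0589 without centring and 0.0989 under quantile normalisation), and SCARNA17. Of 11 host genes of small nucleolar RNAs, 6 rose and none fell, against 1 that rose without centring and 0 under quantile normalisation; SNHG8 stood at 94.75, 86.45, 85.52, 90.73, 112.54 and 112.81 FPKM (slope 0.12 ± 0.02, adjusted p = 0.00941, but 0.04 and 0.148 under quantile normalisation).

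The other RNAs with the largest gains did not belong to one group. CLCN7, a lysosomal chloride transporter, held 24.09, 28.57, 27.02, 50.84, 50.06 and 54.37 FPKM from 0 to 6 h (1.15 ± 0.11, slope 0.25 ± 0.05, limma adjusted p = 0.0161). C1GALT1C1, the chaperone of an O-glycan synthase, held 17.16, 19.84, 18.47, 36.01, 36.92 and 40.54 FPKM (1.22 ± 0.12, slope 0.27 ± 0.05, adjusted p = 0.0138). PRG4, the lubricin of joints, held 11.4, 11.58, 11.56, 28.89, 21.84 and 31.57 FPKM (1.42 ± 0.16, slope 0.3 ± 0.07, adjusted p = 0.0237), and SLC30A5, a zinc transporter, held 7.24, 7.11, 7.25, 17.01, 12.92 and 15.01 FPKM (1.23 ± 0.12, slope 0.24 ± 0.07, adjusted p = 0.0468). All 4 changed most between 1 and 2 h, as STAG3L1 did. Without single libraries the adjusted p of the slope reached 0.0568 for CLCN7, 0.108 for PRG4 and 0.126 for SLC30A5, and the most abundant transcript of SLC30A5 alone had a slope of 0.01. PRG4 and SLC30A5 also lost the call without centring (0.0503 and 0.103) and under quantile normalisation (0.0544 and 0.0809).

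LENG8 stood at 15.17, 28.15, 27.62, 43.26, 45.62 and 56.83 FPKM (slope 0.31 ± 0.06, limma adjusted p = 0.0153), DEAF1, a DNA-binding factor, at 3.91, 8.04, 5.48, 10.98, 11.65 and 12.43 FPKM (slope 0.28 ± 0.07, adjusted p = 0.0339), and PTOV1 at 3.3, 6.96, 9.19, 23.4, 11.11 and 39.22 FPKM (slope 0.49 ± 0.13, adjusted p = 0.0319). CYCS, cytochrome c, took most of its gain at 6 h (12.22, 5.85, 14.46, 14.79, 16.32 and 43.85 FPKM, slope 0.39 ± 0.09, adjusted p = 0.0216). MTRNR2L2 is nearly identical to mitochondrial ribosomal RNA, so its values (1.15, 2.38, 3.84, 5.91, 9.47 and 7.44 FPKM) are uncertain. Without single libraries the adjusted p reached 0.0553 for LENG8, 0.0855 for DEAF1, 0.226 for PTOV1 and 0.243 for CYCS. DEAF1 and PTOV1 also lost the call without centring (0.0741 and 0.0578) and under quantile normalisation (0.0591 and 0.0574).

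Genes of the mRNA decay machinery were called about as often as all genes. Of 53 tested, 13 rose (24.5%) and 5 fell (9.43%), with a median difference of 0.14, beside 0.15 over all genes; without centring 6 rose and 7 fell, and under quantile normalisation 4 and 5. The 5 that fell were EXOSC4, given above, and 4 genes of the CCR4-NOT deadenylase or its recruitment. CNOT2, a scaffold subunit, stood at 18.83, 18.11, 14.03, 10.84, 6.59 and 4.61 FPKM (slope -0.3 ± 0.02, limma adjusted p = 0.00353). CNOT4, a ubiquitin ligase tied to the complex, stood at 7.1, 7.56, 6.33, 4.81, 3.19 and 2.54 FPKM (slope -0.22 ± 0.03, adjusted p = 0.00474), and CNOT8, a nuclease subunit, at 13.83, 12.27, 12.56, 10.89, 7.76 and 5.59 FPKM (slope -0.16 ± 0.02, adjusted p = 0.00496). The most abundant transcript of CNOT4 alone did not pass (slope -0.14, limma adjusted p = 0.108). TOB1, an adaptor that brings the complex to the poly(A)-binding protein, stood at 27.31, 22.66, 14.69, 13.9, 6.21 and 6.37 FPKM (slope -0.31 ± 0.05, adjusted p = 0.00918). CNOT1, the central scaffold, did not pass the test (37.59, 32.08, 34.07, 32.86, 29.77 and 28.71 FPKM, adjusted p = 0.932). CNOT1 was chosen after its values were seen.

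Of 7 genes of the microRNA machinery, 1 rose, PRKRA, a partner of Dicer (10.56, 12.8, 11.12, 12.87, 12.48 and 13.63 FPKM, slope 0.09 ± 0.02, limma adjusted p = 0.0261, up to 0.124 without 1 library, 0.224 without centring and 0.0598 under quantile normalisation), and none fell. EIF2C2, which encodes Argonaute 2, held 8.98, 4.72, 5.69, 5.09, 4.12 and 3.32 FPKM (slope -0.12 ± 0.05, adjusted p = 0.126). Of 51 translation factors, 12 rose and 1 fell (23.5% and 1.96%, median difference 0.16, which is -0.03 without centring, where 6 rose and 2 fell; 3 and 2 under quantile normalisation), and of 19 aminoacyl-tRNA synthetases 9 rose and 1 fell (median 0.23), against 1 and 1 without centring and 0 and 4 under quantile normalisation (median -0.02). Of 31 genes of ribosome biogenesis, 5 rose and 7 fell (median 0.01, which is -0.19 without centring, where 1 rose and 13 fell); WDR43, a factor of the small subunit, stood at 50.85, 42.79, 36.7, 20.87, 9.41 and 7.43 FPKM (slope -0.44 ± 0.04, adjusted p = 0.0037). Of 24 splicing factors, 2 rose and 5 fell (median 0.07, which is -0.12 without centring).

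Sequence features of the mRNAs were read from GENCODE v29 (GRCh38) for the 8278 tested genes with a matched transcript and a 3′ UTR. Motifs were searched on the sense strand of the 3′ UTR: the Pumilio octamer TGTANATA (N is any base), the AU-rich nonamer TTATTTATT and its shorter core TATTTAT, which lies within the nonamer, and CTACCTC, which pairs with the seed of let-7. Pumilio proteins and the proteins that bind AU-rich elements bring deadenylases to mRNA, and let-7 acts through GW182 proteins. Of 17739 3′ UTRs in the annotation, 22.7% held the Pumilio octamer, 7.32% the nonamer, 27.8% its core and 8.18% the let-7 heptamer. The sites below are from 3 RNAs described here, with 10 bases on either side and the motif in capitals, to show what was counted; the last line is the let-7a sequence of RefSeq (GRCh38.p14) with its seed in capitals.
NR4A1 3′ UTR, chr12:52059210-52059237, plus strand: agcgccgtgcTGTAAATAagcccagtgc
BHLHE40 3′ UTR, chr3:4985088-4985115, plus strand: ggtgtaaaatTGTAAATAtttttatcta
KLF5 3′ UTR, chr13:73076426-73076453, plus strand: ttcaaaatttTGTAAATAtgcaaatcag
KLF5 3′ UTR (AU-rich nonamer), chr13:73077177-73077205, plus strand: ttgtttatctTTATTTATTttgtggtaat
hsa-let-7a-5p: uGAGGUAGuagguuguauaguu

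The Pumilio octamer was counted first, without a test. Of 2164 with the octamer, the line called 395 lower (18.3%) and 238 higher (11%), with a median difference of -0.02; of 6114 without it, 602 were lower (9.85%) and 1775 higher (29%), with a median of 0.19. Without centring 570 with the octamer (26.3%) and 894 without it (14.6%) were lower, and under quantile normalisation 329 (15.2%) and 595 (9.73%). The shares that were higher, with and without the octamer, were 3.28% and 10.8% without centring. Under quantile normalisation they were 4.25% and 9.49%. Genes with the octamer have longer 3′ UTRs (median 2215 against 723 bases), and the share of genes that rose was 37.2%, 23.0% and 12.7% in equal classes of short, middle and long 3′ UTRs. Among 3′ UTRs of at most 994 bases, the median, 23.3% of 472 genes with the octamer fell, against 8.75% of 3669 without it; among longer ones, 16.8% of 1692 against 11.5% of 2445. KLF5 holds 3 octamers, NR4A1 3 and BHLHE40 1. The sites shown were picked among genes that fell, so they add nothing to these shares.

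Of 656 RNAs with the AU-rich nonamer, 12.2% fell, against 12% of 7622 without it, while 13.6% rose, against 25.2%. In short 3′ UTRs 5.77% of 104 with the nonamer fell, against 10.5% of 4037 without it, and 27.9% rose, against 33.7%. In long ones 13.4% of 552 fell, against 13.7% of 3585, and 10.9% rose, against 15.8%, so the gap among RNAs that rose was smaller within each class of length than over all. Of 133 with at least 2 nonamers, 16.5% fell and 9.77% rose. Of 753 with the let-7 heptamer, 13.3% fell and 15.3% rose, against 11.9% and 25.2% of 7525 without it. Within short and long 3′ UTRs the heptamer's shares of RNAs that fell were 11.7% of 128 and 13.6% of 625, beside 10.4% of 4013 and 13.7% of 3512 without it, and the shares that rose were 28.9% and 12.5%, beside 33.7% and 15.6%. These shares are descriptions of overlapping gene sets, and no test was made of them.

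The share of genes that fell was lower in each class of genes with more exons; the classes were chosen after the values were seen. Of 164 single-exon genes, 39.6% fell and 8.54% rose, with a median difference of -0.42. Of 354 genes with 2 exons, 31.6% fell and 12.4% rose. The share that fell was 14.7% of 1696 genes with 3 to 5 exons, 10.4% of 2626 with 6 to 10 and 8.64% of 3438 with more than 10. In these classes 29.7%, 26.2% and 22.2% rose, and the median differences were close to each other (0.15, 0.16 and 0.16). Without the immediate-early and ZNF lists, 38.6% of 158 single-exon genes fell. Of all 164, with those lists kept, 40.2% fell among shorter and 39.0% among longer 3′ UTRs (82 genes each). JUN, HPS6 and CEBPB, examples taken from the genes that fell, have a single exon in this annotation.

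**Figure D4:**
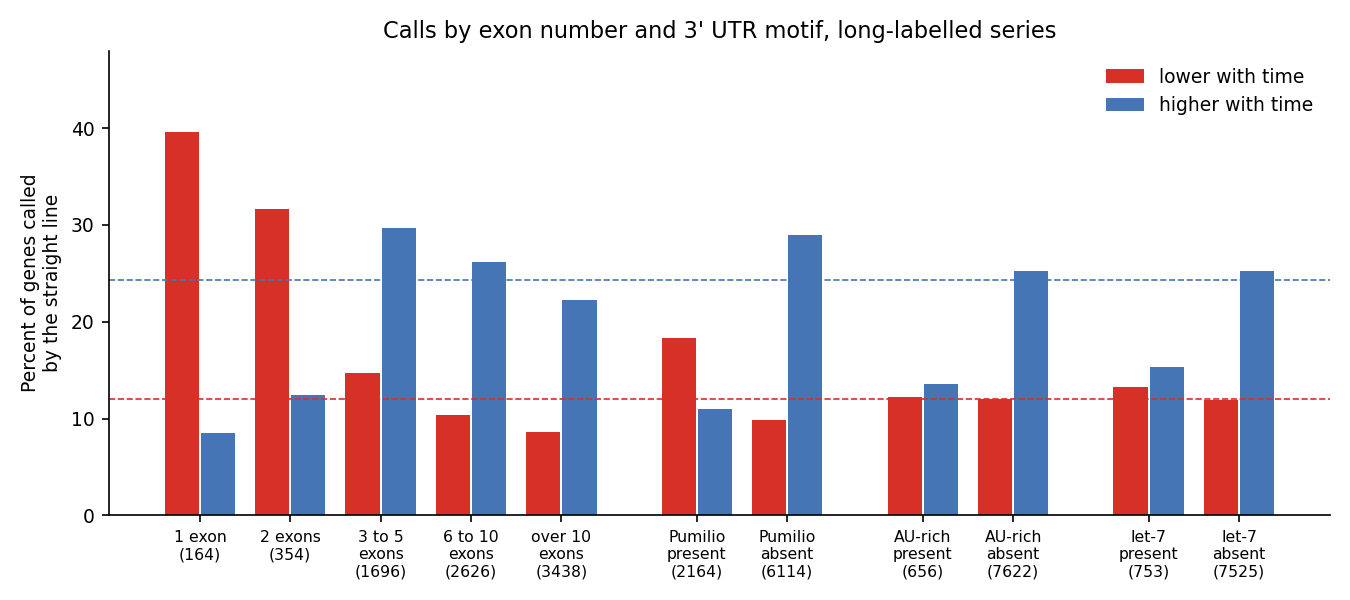
Percent of genes called lower (red) or higher (blue) by the straight line over time in the long-labelled series, by number of exons and by presence or absence of 3 motifs in the 3′ UTR, with the number of genes in brackets; dashed lines mark the shares over all 8278 matched genes. Single-exon genes show 39.6% lower, and genes with the Pumilio octamer 18.3% lower against 9.85% without it.

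Set against the control series, the late minus early difference of the long-labelled series passed the test in 8 of 7860 genes, 5 higher (0.0636%) and 3 lower (0.0382%); 760 genes had an unadjusted p under 0.05. Against the mean of the short-labelled, both-labelled and control series, 7 genes passed, 6 higher (0.0763%) and 1 lower (0.0127%), with 870 at an unadjusted p under 0.05. Both tests compare the same long-labelled libraries and share the control, so they are not independent of each other. They took time as a factor over all 24 libraries in limma. Without that pairing of times the counts were 1 and 0. When single long-labelled libraries were left out, the counts ran from 0 and 3 (without 0.5 h) to 25 and 61 (without 2 h).

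Of the genes with a higher difference in the long-labelled series, 7 had a mean of at least 5 FPKM, and 5 of these are on the immediate-early list. All 8 calls against the control were lost when only the 12 libraries of these series were fitted (adjusted p of 0.291 to 0.624). BHLHE40, a repressor of the circadian and stress response, stood at 66.4, 36.81, 23.76, 11.59, 8.73 and 6.98 FPKM in the long-labelled libraries, against 96.05, 50.89, 27.91, 8.43, 5.43 and 4.07 FPKM in the control libraries. Its late minus early difference was -1.93 in the long-labelled, -2.78 in the short-labelled, -2.63 in the both-labelled and -2.95 in the control series (long minus control 1.02 ± 0.13, limma adjusted p = 0.0149; long minus the other 3 series 0.86 ± 0.11, adjusted p = 0.00467). The long-labelled values were the lower ones up to 1 h and the higher ones from 2 h on. RHOB, a GTPase of the actin skeleton, stood at 157.78, 88.21, 57.09, 29.27, 17.98 and 15.33 FPKM in the long-labelled, against 340.03, 193.69, 129.69, 48.92, 19.26 and 15.08 FPKM in the control libraries (0.85 ± 0.14, adjusted p = 0.0383; against the other 3 series 0.71 ± 0.12, adjusted p = 0.0292). For RHOB the long-labelled and control series differed at the early times and met at 4 and 6 h. The short-labelled and both-labelled series stood at 155.59 and 151.72 FPKM at 0 h, near the long-labelled one, and at 7.28 and 9.44 FPKM at 6 h, below it. EFNA1, a ligand of Eph receptors, differed by 0.5 ± 0.08 from the control (adjusted p = 0.0383) and by 0.52 ± 0.07 from the other 3 series (adjusted p = 0.00467). BHLHE40 lost its call against the control without the long-labelled library of 0.5 h (adjusted p = 0.0722), and without all libraries of 0 h (0.119) or 0.5 h (0.153). RHOB and EFNA1 lost it when any 1 of the long-labelled libraries other than that of 2 h was left out (adjusted p of up to 0.122 and 0.111).

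CEBPD, a leucine-zipper factor, stood at 28.43, 21.59, 15.8, 11.79, 10.54 and 10.08 FPKM in the long-labelled, against 20.76, 13.5, 10.6, 5.15, 3.63 and 2.85 FPKM in the control libraries (0.9 ± 0.14, limma adjusted p = 0.0383), and the long-labelled library was the higher at all 6 times. Its late minus early difference was -0.8 in the long-labelled and -0.82 in the both-labelled series, beside -1.41 in the short-labelled and -1.7 in the control series. DUSP4, a phosphatase of MAP kinases, differed by 0.75 ± 0.13 (adjusted p = 0.0456), with -1.32 in the long-labelled and -1.39 in the both-labelled series, beside -1.73 in the short-labelled and -2.07 in the control series. KLF10, a factor induced by TGF-beta, stood at 15.73, 10.34, 8.34, 6.54, 4.7 and 4.82 FPKM in the long-labelled libraries and differed from the other 3 series by 1.53 ± 0.18 (adjusted p = 0.00467), with -0.87 in the long-labelled, -2.85 in the short-labelled, -2.27 in the both-labelled and -2.08 in the control series. IER5L, an immediate-early protein, differed from them by 0.97 ± 0.15 (adjusted p = 0.0239). Against the other 3 series, BHLHE40, EFNA1 and KLF10 passed the test whichever long-labelled library was left out, while RHOB and IER5L did not (adjusted p of up to 0.177 and 0.0914). Without the 0.5 h libraries of all series, the 3 did not pass either (adjusted p = 0.0882 each), nor did BHLHE40 and EFNA1 without those of 0 h (0.0502 and 0.0582), nor any of the 3 without time as a factor (0.998 for BHLHE40, 0.731 for EFNA1 and 0.609 for KLF10). Against the control, the adjusted p reached 0.107 for CEBPD and 0.153 for DUSP4 when 1 long-labelled library was left out. Without all libraries of 1 time it reached 0.187 and 0.293, and without time as a factor it was 0.999 for each.

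Genes with the opposite difference were fewer. SDC3, a heparan sulfate proteoglycan, held 8.68, 8.6, 6.97, 8.58, 2.21 and 6.6 FPKM in the long-labelled libraries, against 1.34, 2.31, 2.24, 14.14, 13.53 and 14.85 FPKM in the control libraries (-3.52 ± 0.49, limma adjusted p = 0.0171), and the short-labelled (-0.68) and both-labelled (-0.15) series were closer to the long-labelled one (-0.49) than to the control (3.03). EPRS, the glutamyl-prolyl-tRNA synthetase, held 60.87, 58.96, 63.29, 56.57, 65.65 and 63.09 FPKM in the long-labelled and 51.63, 54.68, 56.79, 85.93, 87.65 and 84.43 FPKM in the control libraries (-0.67 ± 0.11, adjusted p = 0.0383). In both genes the control series changed more between 1 and 2 h than the long-labelled one. EPRS also rose then in the short-labelled (45.38 to 56.11 FPKM) and both-labelled (38.51 to 49.8 FPKM) series. Its late minus early difference was 0.46 and 0.28 in these, beside 0.20 in the long-labelled and 0.87 in the control series. Without single long-labelled libraries the adjusted p reached 0.0722 for SDC3 and 0.107 for EPRS. FAM195B differed from the other 3 series by -0.64 ± 0.1 (adjusted p = 0.0292, and up to 0.177 without 1 library), and the next by unadjusted p were EAPP (-0.88 ± 0.17, adjusted p = 0.0623) and C19orf63 (-0.67 ± 0.13, adjusted p = 0.0742), which did not pass.

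Described by counts, without a test of the lists, more immediate-early genes had a higher than a lower difference in the long-labelled series. Of 59 tested in all 24 libraries, 45 (76.3%) had a higher late minus early difference in the long-labelled than in the control series, beside 47.2% of all 7860 genes, and 44 (74.6%) a higher one than the mean of the other 3 series, beside 48%. The median difference from the control was 0.36 and that from the other 3 series 0.28, beside -0.01 and -0.01 over all genes. Of these 59, 3 passed the test against the control (BHLHE40, RHOB and DUSP4) and 4 against the other 3 series (BHLHE40, RHOB, KLF10 and IER5L), all higher. The median late minus early difference of the list was -1.28 in the long-labelled, -1.53 in the short-labelled, -1.54 in the both-labelled and -1.7 in the control series. Ribosomal proteins differed by medians of 0 and 0.01, and oxidative phosphorylation by 0.01 and -0.01. The mRNA decay list had 31 of 48 genes (64.6%) above the control and 32 (66.7%) above the other 3 series, with medians of 0.11 and 0.1. Against the control, splicing factors (68.2%), proteasome genes (65.9%) and mitochondrial ribosomal proteins (65.2%) had shares at least as high. Their shares above the other 3 series were 50.0%, 61.0% and 43.5%.

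**Figure D5:**
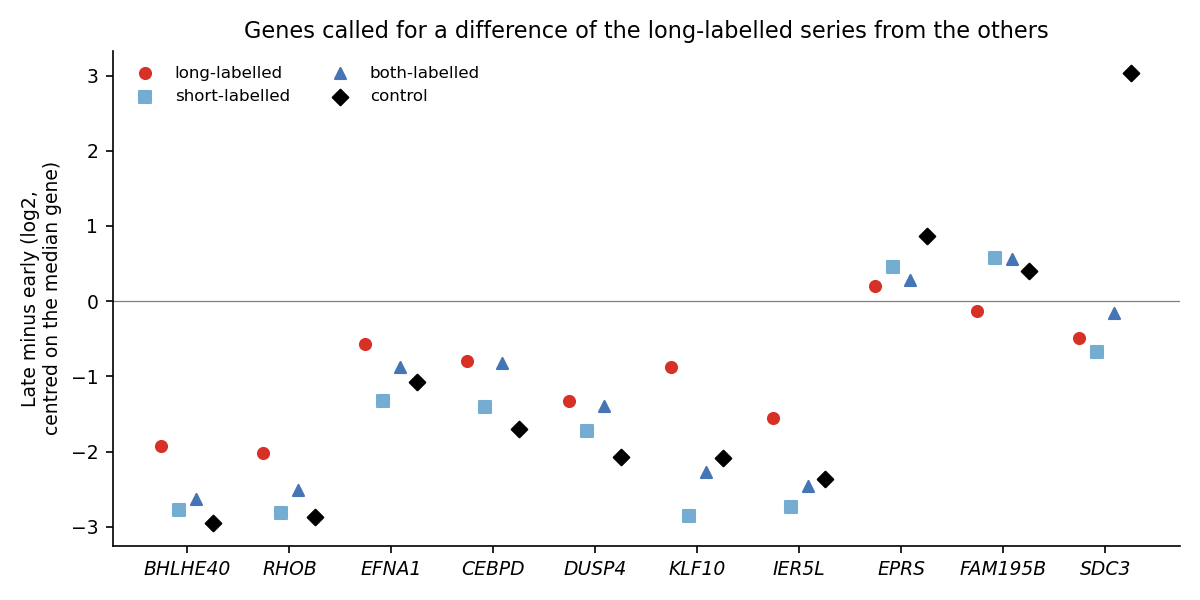
Late minus early difference (log2, centred on the median gene) of 10 genes in the long-labelled (red circles), short-labelled (light blue squares), both-labelled (blue triangles) and control (black diamonds) series; each point compares 3 late with 3 early libraries. For BHLHE40, RHOB, KLF10 and IER5L the long-labelled point is the highest of the 4, and for SDC3 the control stands alone at 3.03.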

How the data were processed

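The authors deposited 1 table of FPKM values per transcript for 24 libraries of cytoplasmic RNA; the submitters' processing notes name TopHat 1.3.3 and the genome build hg19, and no read totals were at hand. The FPKM of the transcripts of a gene were summed. A gene was left out where the series held a dash, or a 0 at a time beside one with at least 1 FPKM, and where its mean was under 1 FPKM, which kept 8837 of 22925 genes (737 left out for a 0 and 216 for a dash). Values were taken as log2(FPKM + 0.1) and centred on the median gene of each library. The 3 late were compared with the 3 early libraries in limma 3.58.1 (R 4.3.3) with a mean-variance trend and Benjamini-Hochberg adjustment over all genes tested, at a threshold of 0.05; an adjusted p in the report is from that tool. The straight line over time was listed as an alternative at the outset and gives the counts of genes that rose and fell. Differences between series were fitted over 24 libraries with time as a factor, since each time occurs once in each of the 4 series. The fits were run on simulated data with independent normal scatter about a flat course. Late against early, limma called 23, 42 and 80 of 100 genes changed by 0.5, 1 and 2 (log2), with 14 false calls. The spread of the real libraries holds the course itself, so these shares need not apply to them.

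Genes were named by rule: of those called with a mean of at least 5 FPKM, no overlap and the same sign without any library, the 12 largest differences in each direction, up to 3 per list by smallest p, the 6 largest called differences per comparison of series in each direction, and PAN3, PAN2, MYC, JUN, IER2, CDKN1A, HMOX1, CITED2, GAPDH and ACTB. Some genes that the rule picks are not reported here. Because the comparison of phases called 2 genes, the rule was applied to the genes the line called. The lists and the comparison were chosen with earlier results of these data known. Pseudocounts, filters, scaling, spread, libraries and times were varied.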

Additional observations from a re-analysis of the deposited data

Results flagged for a closer look

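Between the series, 15 tests of the difference itself passed in limma, and no explanation was tested. The late minus early difference of the long-labelled series was above that of the control series by 1.02 for BHLHE40, 0.90 for CEBPD, 0.85 for RHOB, 0.75 for DUSP4 and 0.50 for EFNA1 (log2). It was below that of the control series by the following differences: -3.52 for SDC3, -1.67 for ZNF148 and -0.67 for EPRS.

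Against the mean of the short-labelled, both-labelled and control series, the difference was 2.63 for CHD7, 1.53 for KLF10, 0.97 for IER5L, 0.86 for BHLHE40, 0.71 for RHOB, 0.52 for EFNA1 and -0.64 for FAM195B. CHD7, a chromatin remodeller, and ZNF148, a zinc-finger factor, averaged under 5 FPKM and are described only here. CHD7 passed the filter on low values over all 24 libraries but not over the 6 long-labelled ones, where its mean was under 1 FPKM. It thus entered the test only through the level of the other series, and its difference is not read as a result. Its call was lost without the 0.5 h libraries of all series (limma adjusted p = 0.114). It was also lost without time as a factor (0.257) and with a straight line over time (0.0524). The late minus early difference of ZNF148 was -1.12 in the long-labelled and 0.54 in the control series. It was -0.96 in the short-labelled and both-labelled series. The control libraries held ZNF148 at 1.43, 1.29, 0.93, 2.31, 1.36 and 1.17 FPKM, with the highest value at 2 h. Its call was lost without any 1 long-labelled library other than that of 2 h (limma adjusted p of 0.0722 to 0.107). Neither did it pass without time as a factor (0.51) or with a straight line over time (0.186).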

How the results depend on the processing

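Between late and early libraries, limma called 2 genes, against 0 with a filter at 5 FPKM (2257 at an unadjusted p under 0.05) and under quantile normalisation (2616), 1 without centring, 11 with a filter at 0.1 FPKM, 18 with no filter on the mean, 32 with zeros kept, 854 with the spread of all 24 libraries (445 higher, 409 lower), 1382 without the 1 and 2 h libraries and 3168 with the straight line. Leaving out 1 library gave 0 to 2080. The straight line itself called 1678 genes under quantile normalisation and 2035 without the 1 and 2 h libraries, and 1745 to 2928 when 1 library was left out; its other alternatives, applied after seeing the data, stayed within 1.5 times the main count, 2304 without centring among them. Against the control, the 8 calls became 5 with no trend, 0 with only the 12 libraries compared (607 at an unadjusted p under 0.05) and 144 with the straight line, and 0 to 40 when a time or a library was left out. Against the other 3 series, the 7 calls became 13 with a filter at 5 FPKM and 243 with the straight line, and 0 to 104 when a time or a library was left out. The times are shared by the 4 series and served as the replicate block; with no replicate block, the counts were 1 against the control (369 at an unadjusted p under 0.05) and 0 against the other 3 series (445). The cause of these changes was not tested.

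The slope of GAPDH changed sign at a filter of 5 FPKM (-0.00), without centring (-0.03), under quantile normalisation (-0.10) and without the 4 h library (-0.01; -0.01 to 0.17 when 1 library was left out). That of CNOT1 did at a filter of 0.1 FPKM (0.01), with no filter on the mean (0.03) and without the 0 h library (0.01), and that of ACTB under quantile normalisation (-0.02). Of 66 printed slopes that passed, 25 did not pass without 1 of the libraries and 23 in another setting. Of 1122 list counts from the line under these alternatives, 268 moved by over 1.5 times. The PAN3 difference lay between 0.169 and 0.804 FPKM when 1 library was left out. With 1 library at each time and no read totals, the counting error behind an FPKM is unknown, values near 1 FPKM are the least certain, and relative loss is all that the scale shows.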

Other observations

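A few RNAs changed in a single step, with both sides of the step within 0.5 and the step itself at least 1 (log2, centred). Between 1 and 2 h, CDK13, a kinase of transcription elongation, held 1.62, 1.73 and 1.43 FPKM in the late and 6.31, 4.96 and 4.53 FPKM in the early long-labelled libraries. PPARGC1A, a coactivator of mitochondrial genes, held 1.49, 1.24 and 1.10 FPKM in the late and 5.05, 3.76 and 3.45 FPKM in the early libraries. Of 7860 genes, 3, 5 and 8 made such a step after 0.5, 1 and 2 h in the long-labelled series. The counts were 7, 10 and 13 in the short-labelled, 6, 6 and 9 in the both-labelled and 3, 7 and 10 in the control series.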
